A study of Mus musculus with 2 samples.

Results

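The proteasome genes of the mouse cerebral cortex were compared between control mice and presenilin conditional double knockout (PS cDKO) mice, all aged 6 months. The genes were taken by symbol: every probe set that the platform annotation pairs with exactly 1 symbol beginning with Psma, Psmb, Psmc, Psmd, Psme, Psmf or Psmg and a digit. This gave 58 probe sets for 46 of the 8251 genes named on the array. Total RNA was hybridised to 2 oligonucleotide arrays, 1 per genotype, so the differences given here have no replicate check, and no test was made. The labels do not give the Cre driver, the cells it deletes in, the genotype of the controls, or whether an array holds RNA of 1 animal or of a pool.

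The proteasome degrades proteins that carry ubiquitin chains. Its core is a barrel of stacked rings, the outer ones built of alpha subunits, which gate the entrance, and the inner ones of beta subunits, of which Psmb5, Psmb6 and Psmb7 carry the peptide-cutting sites. A cap sits on the barrel. Its base holds ATPases (the Psmc genes) that unfold the substrate, and some non-ATPase subunits (Psmd genes), such as the ubiquitin receptor Psmd4. Its lid holds other Psmd subunits, among them Psmd14, which removes the ubiquitin. In immune cells and under interferon, Psmb8, Psmb9 and Psmb10 replace the cutting subunits and form the immunoproteasome, which makes peptides for MHC class I. In neurons the proteasome also turns over synaptic proteins. The subunits of a complete particle are made in matched amounts, and the transcription factor Nrf1, product of the gene Nfe2l1, raises their genes together when proteasome activity is low.

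The arrays had median intensities of 299.7 (control) and 305 (PS cDKO). Each intensity printed below is the deposited value, and each log2 ratio is PS cDKO over control after the PS cDKO array had been raised by 0.034 on the log2 scale. Signals under a floor of 232, the 40th percentile of both arrays, were set to it, which leaves a probe set without a ratio if both its signals were under it, and with only a bound if 1 was. Psen2, a targeted gene, had intensities of 105 and 94.9, both under the floor, and gave no check of the genotype.

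Of the 46 proteasome genes, 38 were above the floor on both arrays, 2 had a bound and 6 were under it on both. Most of the 40 measured genes were slightly lower in the PS cDKO. The log2 ratio was below 0 in 30 of them (75%), against 48.1% of all 5885 genes measured, and their median was -0.14, a 1.10-fold lower level, against 0.012 for all genes. Few were far from the rest: 2 were lower by at least 0.32 on the log2 scale, the size at which large differences were counted, against 8.36% of all genes, and 1 was higher by as much, against 8.05%. The 2 lower genes are 5% of those measured. Under the 3 other scalings tried the counts were 4 and 1, and the 4 lower genes (10%) stood beside 10.8% of all genes with intensities as deposited, 8.33% after quantile normalization and 8.31% after lowess. These shares of large differences were near those of the array as a whole. The position of the group came from many small differences, since 24 of the 40 (60%) had log2 ratios between -0.35 and -0.1, where 25.1% of all genes lay. In bulk tissue, fewer cells of a type and less RNA per cell cannot be told apart.

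**Figure D1:**
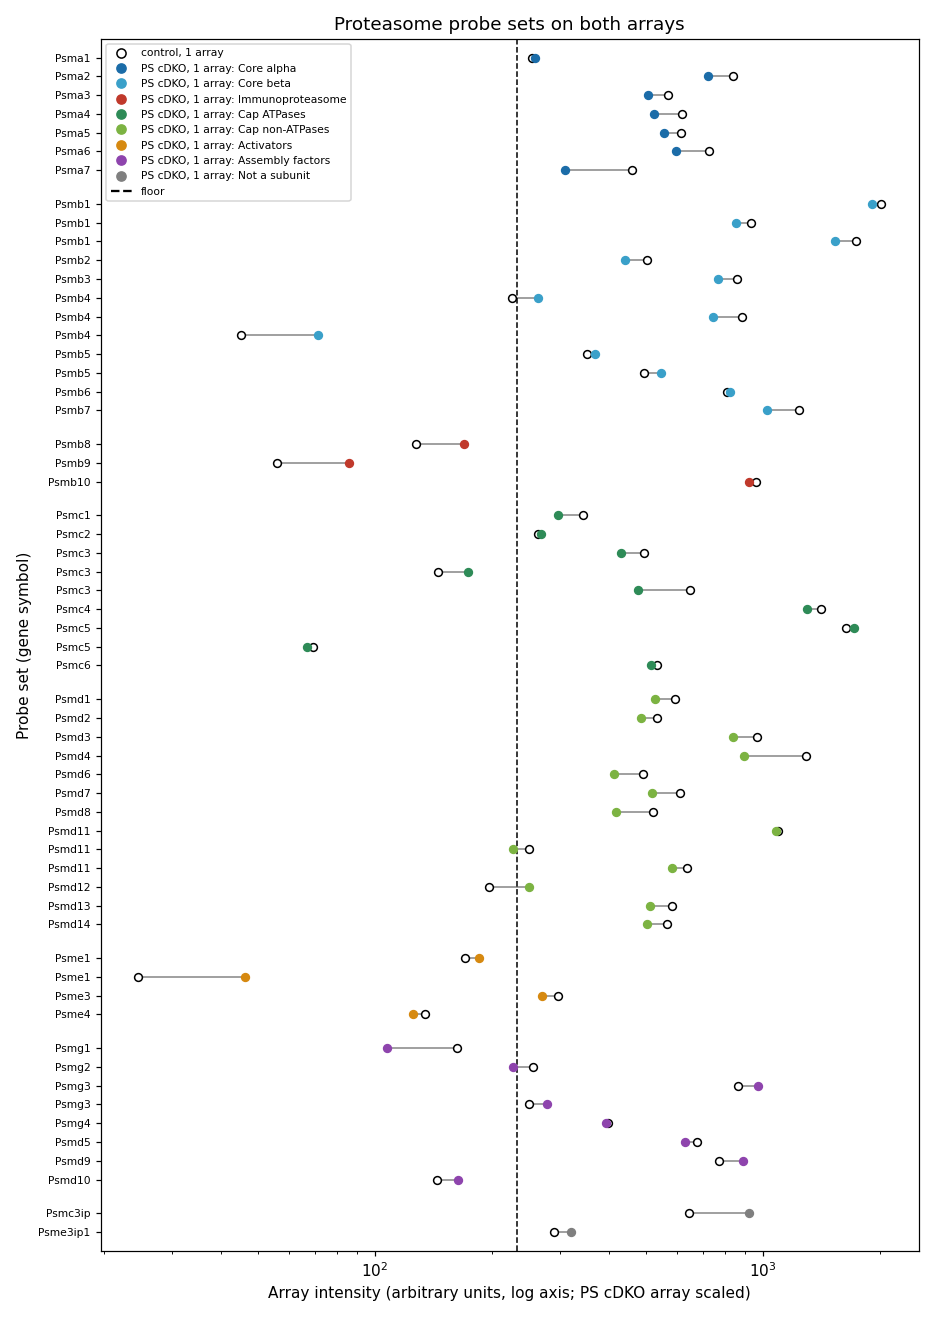
Intensity of each of the 58 probe sets (rows, named by gene and ordered by class) on the control array (open circles) and the scaled PS cDKO array (filled circles), on a log axis, with the floor of 232 as a dashed line. The filled circle lies left of the open one in most core and cap rows, and Psmb8 and Psmb9 lie under the floor on both arrays.

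The core and the cap carried this pattern. All 31 of their constitutive subunits on the array were measured, and 25 were lower; their median log2 ratio was -0.17, with an SD of 0.16 across subunits. The core had a median of -0.18 over 14 subunits and the cap one of -0.17 over 17. The quartiles of the 31 subunits were -0.25 and -0.099, while those of all genes were -0.15 and 0.16.

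**Figure D2:**
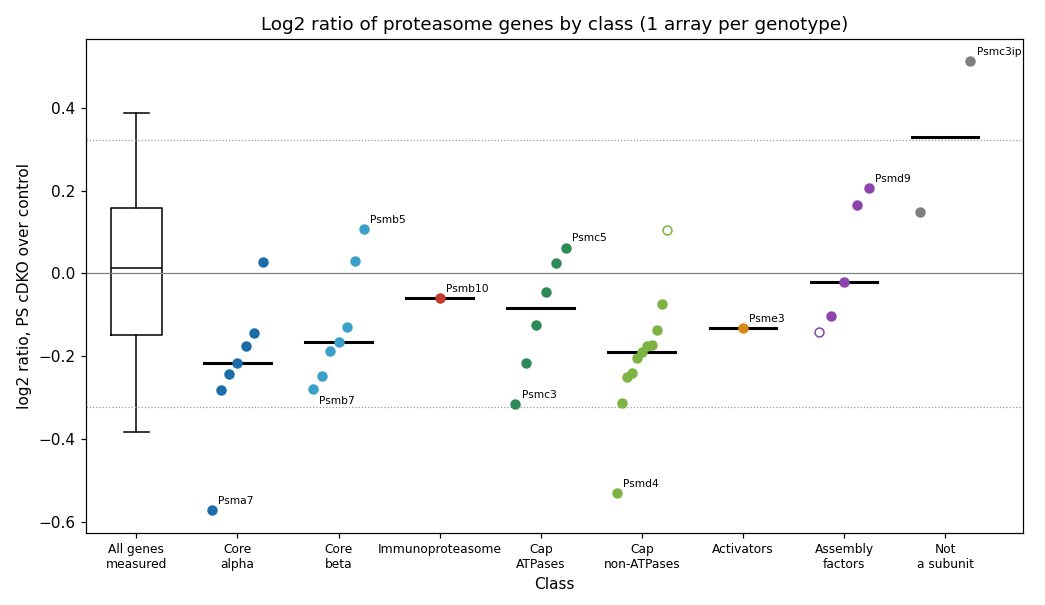
Log2 ratio (PS cDKO over control) of each measured proteasome gene by class, with bars at the class medians, open circles for bounds, dotted lines at 0.32 on either side of 0, and a box plot of all 5885 measured genes (box, quartiles; whiskers, 5th and 95th percentiles). Psma7 and Psmd4 lie beyond the lower dotted line, and Psmc3ip, which is not a proteasome subunit, beyond the upper one.

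The alpha ring had the lowest median of the classes with more than 1 measured gene, -0.22, with 6 of 7 subunits lower. Psma7, an alpha subunit also known to bind several regulatory proteins, was the lowest of all proteasome genes. Its intensities were 460.2 (control) and 303 (PS cDKO), a log2 ratio of -0.57 or 1.49-fold lower, and 0.901% of all genes measured lay lower still. With a floor at the 60th percentile its PS cDKO signal was under the floor, and the bound was a log2 ratio of -0.19. Psma6 was 1.21-fold lower (726 against 583) and Psma4 1.18-fold lower (619 against 511). Psma2, Psma3 and Psma5 were 1.16-fold, 1.13-fold and 1.10-fold lower. Psma1 was level, with intensities of 253 and 252 and a log2 ratio of 0.028, which became -0.0058 without the scaling of the PS cDKO array.

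Of the constitutive beta subunits 5 of 7 were lower and the median was -0.17, with an SD of 0.14 across subunits against 0.18 in the alpha ring. The median was -0.079 after quantile normalization, -0.069 after lowess and -0.050 without suffixed probe sets. Of the cutting subunits, Psmb7, which carries the trypsin-like site, was 1.21-fold lower (1242 against 1001). Psmb6, which carries the caspase-like site, was level at 806 and 804, with a log2 ratio of 0.029 that was below 0 without the scaling. Psmb5, which carries the chymotrypsin-like site and is the target of proteasome inhibitors, was 1.08-fold of control. Both of its probe sets were higher, 352 against 361 and 494 against 534. Of these 3 cutting subunits only Psmb7 was lower after scaling, in its 1 probe set, which carries a suffix in its name. The log2 ratios of Psmb5 and Psmb6 lay within 0.21 of 0, the SD of a single probe set taken from probe sets of the same gene. Among the structural beta subunits, Psmb1 was lower in all 3 of its probe sets (2018 against 1870, 929.8 against 832 and 1739 against 1498), with a mean log2 ratio of -0.13. Psmb2 and Psmb3 were 1.14-fold and 1.12-fold lower. Psmb4 was 1.19-fold lower in the only probe set with both signals above the floor (883 against 727). Its other 2 probe sets were higher, 225 against 256 at the floor and 45.3 against 69.5 under it. Its direction thus rests on 1 probe set, which carries a suffix in its name.

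Of the immunoproteasome subunits only Psmb10 was measured above the floor. Psmb10, the counterpart of Psmb7, had intensities of 961 and 900.25, a log2 ratio of -0.060. Psmb8, the counterpart of Psmb5, had intensities of 128 (control) and 166 (PS cDKO), and Psmb9, the counterpart of Psmb6, had 55.8 and 83.6. All 4 values lay under the floor, so that no ratio was taken from them, although the PS cDKO value was the larger in both genes. A difference in Psmb8 or Psmb9 between the genotypes was thus not measurable with this floor. With the floor at the 20th percentile both values of Psmb8 were above it, with a log2 ratio of 0.41, and those of Psmb9 were under it.

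Interferon-induced genes, the class to which Psmb8 and Psmb9 belong, were mostly higher: 7 of the 8 measured, with a median log2 ratio of 0.26. Summed over all 12 genes of the list on the array, with the brightest probe set of each, the intensity was 5619 in the control against 6233. Sums of the other lists were made in the same way and include genes under the floor. Ifit1, Ifit2, Ifit3 and Irgm1 were under the floor. All 8 measured markers of microglia and macrophages were higher, with a median of 0.62, while Aif1, Fcer1g and Lyz2 were under the floor. The sum over all 11 was 3857 against 6288. Of the T cell and natural killer cell markers 3 of 7 were measured: Cd3e (376 against 437), Cd4 (1297 against 1136) and Gzmb (1072 against 960.45). Cd3d, Cd3g, Cd8a and Cd8b1 were under the floor, and the sum over all 7 was 2983 against 2859. The part of these cells in the Psmb8 and Psmb9 signals was not tested.

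In the base of the cap, the 6 ATPases had a median of -0.084, with 4 lower. It was -0.054 after quantile normalization and -0.044 over 5 genes without suffixed probe sets. Psmc3 was the lowest at 1.24-fold. Its 2 probe sets above the floor were 646.6 against 466 and 492 against 421. A further one under the floor was higher, 146 against 170.02. All of them carry a suffix in their names. With a floor at the 20th percentile, where the further probe set entered, the log2 ratio of Psmc3 was -0.12. Psmc1 was 1.16-fold lower (344 against 289) and Psmc4 1.09-fold lower (1414 against 1266). Psmc6, Psmc2 and Psmc5 were close to level, with log2 ratios of -0.044, 0.025 and 0.062. Psmc5, the brightest of them, had intensities of 1641 and 1674. Psmc2 had 263 and 262, and became -0.0089 without the scaling.

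Of the non-ATPase subunits of the cap 10 of 11 were lower, and the median was -0.19. Psmd4, a ubiquitin receptor at the junction of base and lid, was the lowest of them and the second lowest proteasome gene. Its intensities were 1292 (control) and 874 (PS cDKO), a log2 ratio of -0.53 or 1.44-fold lower, and 1.46% of all genes lay lower still. Under the 9 alternatives its log2 ratio stayed between -0.56 and -0.49. In the lid, Psmd8 was 1.24-fold lower (520.3 against 409), Psmd6 1.19-fold (492 against 405), Psmd7 1.18-fold (609.97 against 504) and Psmd3 1.15-fold (965 against 817). Psmd14, the lid enzyme that cuts ubiquitin chains off the substrate, was 1.13-fold lower (565 against 489.8), and Psmd13 1.14-fold lower. Psmd11 was 1.05-fold lower, and each of its 3 probe sets pointed that way. Psmd12 was the exception, at least 1.08-fold of control, with an intensity of 197 in the control, under the floor, and 243 in the PS cDKO. The 1 probe set of Psmd12 carries a suffix in its name. The large base subunits Psmd1 and Psmd2, which form the scaffold that docks ubiquitin shuttles, were 1.13-fold and 1.10-fold lower. The lid had a median of -0.20 over 8 subunits and the base, ATPases included, one of -0.14 over 9.

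Outside the core and cap few genes were measured, and both directions occurred, with more genes lower than higher. Psme3, the nuclear activator ring, was 1.10-fold lower (296 against 264). Psme1, of the interferon-induced activator, had intensities of 171 and 182 in its brighter probe set, and Psme4, a large activator cap, 135 and 123, all under the floor. A further 2 probe sets are paired with both Psme2 and Psme2b and were left out. Of the assembly factors, which help build the core or the cap and are not in the finished particle, 3 of 5 were lower, with a median of -0.020 that became 0.17 over 3 genes with the floor at the 60th percentile. Psmd9, a chaperone of the ATPase ring, was 1.15-fold of control (771 against 869), the highest apart from Psmc3ip. Its 1 probe set carries a suffix in its name. Psmg3, a chaperone of the alpha ring, was 1.12-fold of control, with both probe sets higher (249 against 271 and 862 against 947). Psmg4, its partner, was level at 398 and 384, and Psmd5, another ATPase chaperone, was 1.07-fold lower. Psmg2 was at least 1.10-fold lower, from 256 in the control to 222, under the floor. Psmg1 (163 and 105) and Psmd10 (144 and 160.35), the latter also known as gankyrin, were under the floor on both arrays.

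The symbol rule also took 2 genes whose products are not proteasome subunits. Psmc3ip, a recombination factor of meiotic cells named for binding Psmc3, was the highest of all genes of the rule. Its intensities were 646 (control) and 901 (PS cDKO), a log2 ratio of 0.51 or 1.43-fold of control. Psme3ip1, which binds Psme3, was 1.11-fold of control (289 against 313). Without both, 30 of 38 genes were lower, with a median of -0.15, and 0 were higher by at least 0.32 on the log2 scale.

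The promoter windows of 4 genes are shown because these members span the results: Psma7 and Psmd4, the 2 lowest, Psmb5, a cutting subunit that was not lower, and Psmb8, its interferon-induced counterpart. Each is the 250 bases before the RefSeq start in GRCm38.p6, with capitals marking the motifs searched: the antioxidant response element core TGACNNNGC that Nrf1 binds, the CCAAT box CCAAT, the GC box GGGCGG and the gamma-activated site core TTCNNNGAA that interferon signalling uses, each on both strands. The windows lie at chr2:180042465-180042714 (minus strand), chr3:95042615-95042864 (minus strand), chr14:54617996-54618245 (minus strand) and chr17:34197945-34198194 (plus strand).
Psma7: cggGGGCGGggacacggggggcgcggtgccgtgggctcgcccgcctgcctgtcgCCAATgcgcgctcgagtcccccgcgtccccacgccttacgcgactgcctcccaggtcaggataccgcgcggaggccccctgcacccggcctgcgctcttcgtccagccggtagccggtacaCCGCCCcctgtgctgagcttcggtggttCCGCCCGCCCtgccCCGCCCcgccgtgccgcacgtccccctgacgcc
Psmd4: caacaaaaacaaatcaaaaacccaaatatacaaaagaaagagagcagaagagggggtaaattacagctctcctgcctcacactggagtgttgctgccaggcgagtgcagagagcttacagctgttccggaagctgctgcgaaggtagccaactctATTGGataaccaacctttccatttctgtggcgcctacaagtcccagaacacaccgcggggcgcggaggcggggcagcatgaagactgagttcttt
Psmb5: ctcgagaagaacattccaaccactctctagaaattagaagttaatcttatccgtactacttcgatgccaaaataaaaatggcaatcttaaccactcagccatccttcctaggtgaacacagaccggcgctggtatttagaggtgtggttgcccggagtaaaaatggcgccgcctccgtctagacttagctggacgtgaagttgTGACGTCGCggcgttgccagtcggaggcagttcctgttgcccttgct
Psmb8: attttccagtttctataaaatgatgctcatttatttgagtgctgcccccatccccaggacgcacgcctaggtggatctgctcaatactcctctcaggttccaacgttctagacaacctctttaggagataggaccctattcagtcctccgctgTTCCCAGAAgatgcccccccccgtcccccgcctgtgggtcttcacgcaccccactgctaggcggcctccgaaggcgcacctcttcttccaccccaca

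The antioxidant response element letters stand 47 bases before the start of Psmb5, written TGACGTCGC, and the windows of Psma7 and Psmd4 do not hold them. Psma7 and Psmd4 each hold 1 CCAAT box, and Psma7 also 5 GC boxes, 2 of which overlap. Psmb8 holds the gamma-activated site letters TTCCCAGAA, 97 bases before its start. Over the 39 of 46 proteasome genes with an entry, 42 windows in all, the antioxidant element letters were in 5 (11.9%), in the genes Psmb5, Psmb6, Psmc6, Psmd9 and Psmd12, against 11.7% of the 8408 windows of genes on the array and 10.2% of all 32851 windows. The CCAAT box was in 35.7% of the proteasome windows against 34.6% of windows of array genes and 33.8% of all. The GC box was in 52.4% against 52.8% and 32.7%, and the gamma-activated site letters in 4.76% against 6.09% and 7.02%. The proteasome windows thus held each motif about as often as those of other genes on the array. The antioxidant element letters, in the 5 genes that hold them, went with log2 ratios of 0.11 for Psmb5, 0.029 for Psmb6, -0.044 for Psmc6, 0.21 for Psmd9 and a bound of 0.11 for Psmd12, which is a description of 5 genes. A match shows only these letters and not a bound site.

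Genes with several probe sets gave the only repeated measurement. Among the proteasome genes 8 had more than 1 probe set, and 5 of them more than 1 above the floor on both arrays: Psmb1, Psmb5, Psmc3, Psmd11 and Psmg3. In all 5 these probe sets had the same direction, and the same share over the array is not given here. Further probe sets at or under the floor went the other way in Psmb4, Psmc3 and Psmc5, and the same way in Psmd11. Over 749 genes of the array with such pairs, the SD of the log2 ratio of a single probe set was 0.21. It bears on single genes and not on the median of a group. Only Psma7 and Psmd4 among the subunits were more than 2 such SDs below 0.

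Brighter genes lay lower on these arrays as a whole, and the proteasome genes were of middling signal. Their median signal was 553 against 516 for all measured genes. The genes were split by signal into 3 groups of equal size. In the dimmest group the median log2 ratio of all genes was 0.042 and that of the 8 proteasome genes -0.054. Of these 8, 4 were lower, against 41.5% of all genes in that group. In the middle group the median of all genes was 0.011 against -0.17 for 18 proteasome genes. Of these 18, 16 were lower, against 48.0% of all genes there. In the brightest group the median of all genes was -0.021 against -0.13 for 14 proteasome genes. Of these 14, 10 were lower, against 54.6% of all genes there. After a lowess fit that removes the trend with signal, the median of the proteasome genes was -0.15 and that of all genes 0.0029.

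**Figure D3:**
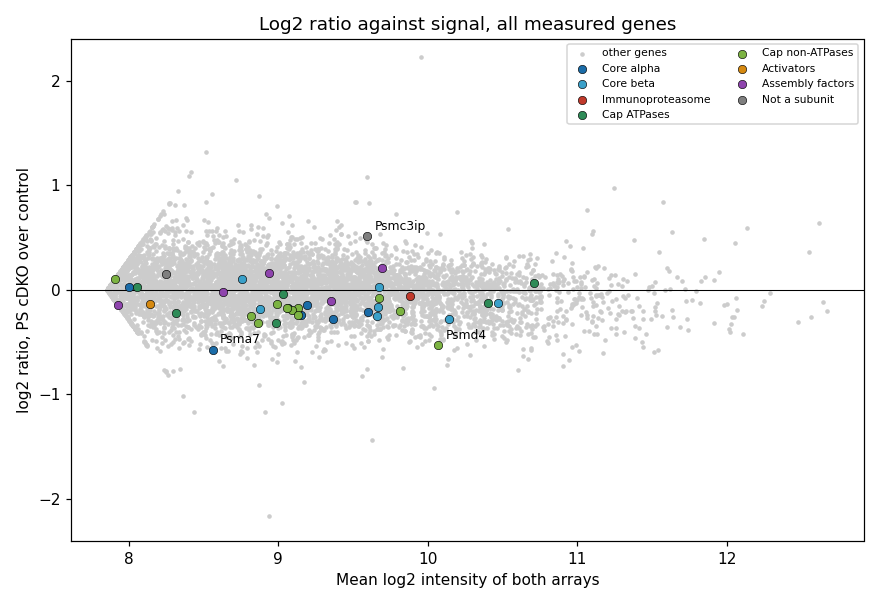
Log2 ratio (PS cDKO over control) against the mean log2 intensity of both arrays for all 5885 measured genes (grey) and the 40 measured proteasome genes (coloured by class). The coloured points lie mostly between -0.35 and 0 across the range of signal, and Psma7, Psmd4 and Psmc3ip lie beyond 0.32 on either side.

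A further 9 lists took in other genes of the ubiquitin-proteasome pathway, and also chaperones and genes of MHC class I peptide loading. Over them 61 of 102 measured genes (59.8%) were lower, and the median was -0.063, against 48.1% and 0.012 for all genes. Of the 41 higher genes, 9 were of the peptide loading list. The enzymes that activate ubiquitin and its relatives (E1) had 3 of 3 lower, with Sae1, of the SUMO-activating enzyme, at 1.36-fold (833 against 601) and Uba7, which activates Isg15, at 1.06-fold lower. The conjugating enzymes (E2) had a median of -0.035 over 19 genes, and -0.11 over 16 without suffixed probe sets. They ran from Ube2v1 at 1.29-fold lower (1502 against 1140.41) to Ube2w at least 1.11-fold of control. The ligases (E3) had a median of -0.054 over 18 genes. Among them Fbxw7, a substrate receptor of Notch and other regulators, was 1.47-fold lower (476 against 315) and Siah1b at least 1.28-fold of control (202 against 291).

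The 23 deubiquitinases had a median of -0.047. Uchl5, which trims ubiquitin on the proteasome, was the lowest, at least 1.41-fold lower (327 against 225). Usp14, which also acts there, was 1.16-fold of control, with both probe sets higher (443 against 469.8 and 1747 against 2102). Usp18, an interferon-induced protease that removes Isg15, was the highest at 1.28-fold (292 against 365). Usp14 was named after its values were seen. Sem1, the small lid subunit that the symbol rule misses, was 1.15-fold lower (519 against 439), and was also named after its value was seen. Shuttle, receptor and p97 genes had a median of -0.15, with 7 of 9 lower. There Sqstm1, the autophagy receptor also called p62, was 1.40-fold lower (774 against 539), and the shuttle Ubqln2 was 1.58-fold of control (248 against 383).

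The short list of maturation and transcription genes had 3 of 3 measured genes lower. Nfe2l1, the gene for Nrf1, was 1.19-fold lower, with both probe sets lower (1377 against 1044 and 962 against 862), and the core maturation factor Pomp was 1.11-fold lower (902 against 795). Ecpas, a proteasome adaptor, had a log2 ratio of -0.032, and Nfe2l2 was under the floor (188 against 226). Chaperones had a median of -0.11 over 17 genes, which was -0.047 with the floor at the 20th percentile and -0.025 with it at the 60th. They ran from Cct6a, a subunit of the folding chamber, at 1.43-fold lower to Hspa1a, an inducible heat shock protein, with a bound of 0.33 on the log2 scale. Genes of MHC class I peptide loading lay on the other side, with 9 of 10 higher and a median of 0.12, from the chaperone Calr at 1.23-fold lower (1743 against 1379) to Pdia3 at 1.52-fold of control (247 against 368). Of the ubiquitin list only Ubd was on the array with 1 symbol, under the floor at 218 and 215.

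**Figure D4:**
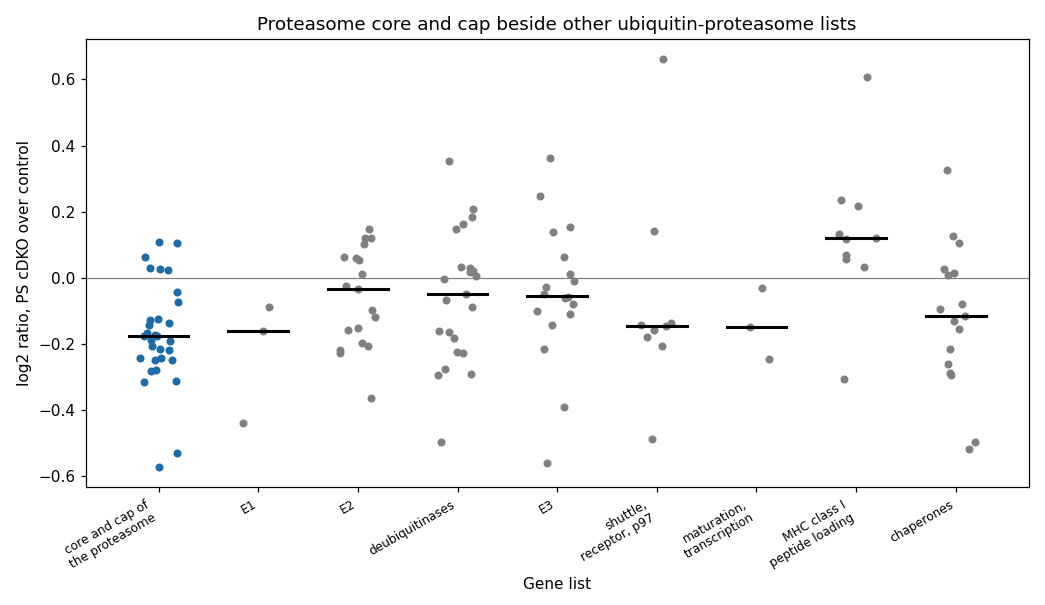
Log2 ratio (PS cDKO over control) of the 31 core and cap subunits of the proteasome (blue) and of the measured genes of 8 other lists (grey), with bars at the medians. The lists hold genes of the ubiquitin-proteasome pathway, chaperones and MHC class I peptide loading genes. The ubiquitin list had no measured gene. The core and cap median is -0.17, and the list of MHC class I peptide loading genes has a median of 0.12.

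Markers of the cell types of the cortex also differed. Of 10 measured neuronal markers 7 were lower. Their median was -0.18, and Gad2 was under the floor. The sum over all 11 was 19622 (control) against 15914 (PS cDKO). Astrocyte markers had 5 of 7 higher, with a median of 0.20 and a sum of 10692 against 11788. The rise of Gfap (458 against 2095 in its brightest probe set) was larger than that of the sum. Of the 2 lower markers, Aldoc had 3296 against 2713 and Glul 3443 against 3116 in its brightest probe set. Oligodendrocyte markers had 3 of 4 measured genes lower, with a median of -0.29, and Cnp and Mog were under the floor. The sum over all 6 was 4810 against 4668. The 3 blood genes, all lower, had sums of 2666 and 1928. Endothelial markers had 1 of 2 measured genes lower, Cldn5 (319.9 against 231) but not Flt1, and Cdh5, Pecam1 and Tek were under the floor. The sum over all 5, those under the floor included, was 1166 against 1164. The part of these cells in the proteasome values was not tested.

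The median log2 ratio of the group was between -0.17 and -0.13 under each processing choice tried, and the mean in place of the median was -0.12. The difference from the median of all genes was -0.14 to -0.17 under the 9 scalings, floors and gene summaries. Of the 30 lower genes 29 were lower in each setting that gave them a value, Psmb4 being the exception, and 7 of the 10 higher genes were higher in each, Psma1, Psmb6 and Psmc2 being the exceptions. The 4 genes lower by at least 0.32 under the other scalings were Psma7, Psmd4, Psmc3 and Psmd8.

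**Figure D5:**
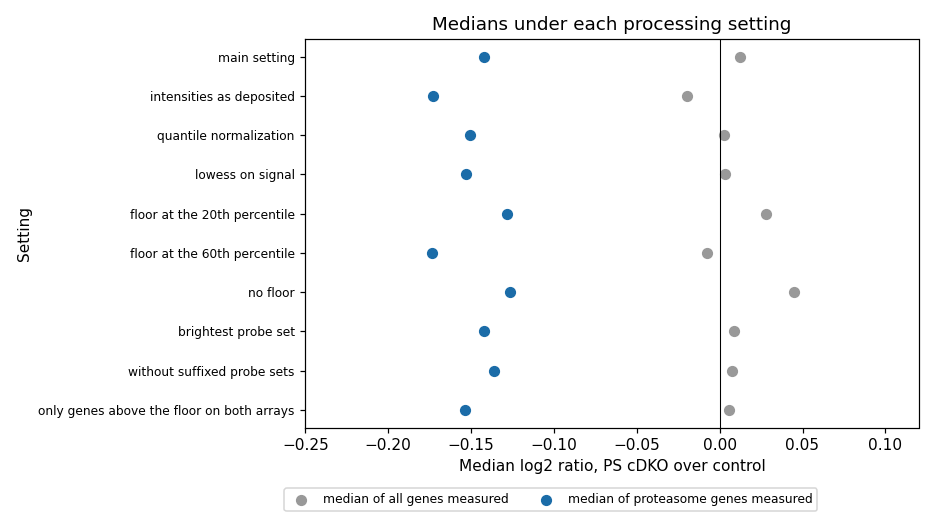
Median log2 ratio (PS cDKO over control) of the measured proteasome genes (blue) and of all measured genes (grey) under the main setting and 9 alternatives. The blue points lie between -0.17 and -0.13 and the grey ones between -0.020 and 0.045.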

How the data were processed

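The authors deposited a linear intensity for each of 12418 probe sets per array, with software, summary method, scaling and genome build each not given in the sources used here. Some intensities are negative (13 in the control, 18 in the PS cDKO). The number of arrays limits the precision. A platform annotation, which can be old, paired 10829 probe sets with 1 symbol (used here), 396 with several and 1193 with none. RefSeq (GRCm38.p6) gave names and promoter windows.

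The PS cDKO array was multiplied to bring the median log2 ratio to 0 among probe sets brighter than the median on each array, and the floor was set before taking log2. A gene's value is the average of its probe sets exceeding the floor on each array, or else of its bounds. Genes were counted by sign and at a log2 size of 0.32 without a test. The procedure was tested on simulated data with differences planted in bright genes. These were larger than any log2 ratio of a proteasome gene given here, so the simulation does not cover small differences.

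Members, classes and other lists were chosen with earlier results of these data known. Psme3ip1 was put among the genes that are not subunits once the annotation had been seen. Values were to be printed for the cutting subunits and their counterparts, the 6 lowest and 6 highest genes, the extremes of each class and list, and genes with a bound, discordant probe sets or no signal over the floor. Other members are named to account for all.

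Alternatives were other scalings (none, quantile, lowess with span 0.3), other floors (20th and 60th percentiles, none), the brightest probe set, no suffixed probe sets, no bounds, a 1.5-fold threshold, a mean, probe sets as units, and leaving out Psmc3ip or the immunoproteasome genes. Tools were matplotlib 3.10.9, statsmodels 0.14.6, scipy 1.17.1, pandas 2.3.3 and numpy 2.4.6 under Python 3.11.15.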

Additional observations from a re-analysis of the deposited data

How the results depend on the processing

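No paired analysis was possible because each genotype has 1 array, and no array could be left out. A value was taken as moved where it changed by more than the probe set SD of 0.21, divided for a median by the square root of its number of genes. Of 345 alternative values of single genes 339 moved by less than this and 6 by more, the latter for Psma7 with the floor at the 60th percentile (-0.19), Psmb4 with the floor at the 20th (-0.014), no floor (0.21) or no suffixed probe sets (0.18), and Psmd12 with the floor at the 20th percentile or none (0.34 in both). The number lower by at least 0.32 on the log2 scale was 2. It was 4 with intensities as deposited (10% of members, 10.8% of all genes), after quantile normalization (8.33% of all genes) and after lowess (8.31%). It was 3 with the brightest probe set (8.94% of all genes), the floor at the 20th percentile (8.17%) or no floor (9.39%). With the floor at the 60th percentile it was 1 (8.77%), and at 1.5-fold 0, against 48 of all 5885 genes. The number higher by as much was 1. With the floor at the 20th percentile it was 3 of 45, against 11.5% of all genes. With no floor it was 5 of 46, against 16.2%. It was 0 at 1.5-fold, against 66 of all 5885 genes, and 0 without Psmc3ip and Psme3ip1. The beta subunit median of -0.17 was -0.079 after quantile normalization, -0.069 after lowess and -0.050 without suffixed probe sets, where Psmb7 left and Psmb4 took its bound of 0.18. The immunoproteasome value, from Psmb10 alone, became 0.41 without a floor and 0.18 with one at the 20th percentile, where Psmb8 entered, and in the former also Psmb9. The assembly factor median became 0.17 with the floor at the 60th percentile, over 3 genes. The deubiquitinase median was 0.0029 with no floor. Other list medians that moved were those of chaperones (-0.047 and -0.025 with the floor at the 20th and 60th percentiles), E2 (-0.11 without suffixed probe sets), E1 (-0.44, from 1 gene, with the floor at the 60th percentile) and peptide loading (0.19 with the brightest probe set). Except where genes entered or left, the causes were not tested. The alternatives added after seeing the data were those without Psmc3ip and Psme3ip1 and without Psma7 and Psmd4, which gave medians of -0.15 and -0.14.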
